A study of Mus musculus with 30 samples.

Results

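Podofilox, also called podophyllotoxin, is a plant lignan that binds tubulin, and the comparison described here sets the RNA of fibroblasts exposed to it against the RNA of fibroblasts given only the solvent DMSO. The study concerned small molecules and stress resistance that does or does not depend on NRF2, a transcription factor for antioxidant and detoxification genes. All cells belonged to CCG-HTA-1, a primary tail fibroblast line of the genetically mixed UMHet3 mouse stock, and the labels of Podofilox and DMSO give the mice as 5 to 8 weeks old at collection. Of the other groups, which share the estimate of spread, 1 Dihydrorotenone library is labelled 8 to 11 weeks. Both groups were used at passage 4, grown in high-glucose medium with 10% foetal calf serum under 10% CO2, and harvested 48 hours after the compound was added. Podofilox had 3 libraries and DMSO had 6, and the other 7 compounds of the study had 3 libraries each. The dose of Podofilox is not given in the sources used here. Of 29861 genes in the deposited table, the 12948 with at least 1 TPM (transcript abundance scaled for gene length and to 1 total per library) in at least 3 of the 9 libraries were analysed.

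Microtubules are hollow filaments of alpha-tubulin and beta-tubulin dimers that carry organelles, build the mitotic spindle and hold signalling proteins. Podofilox binds beta-tubulin at the colchicine site and blocks its assembly, so dividing cells exposed to such agents arrest in mitosis. Loss of microtubules also releases the exchange factor GEF-H1 (gene Arhgef2) from them, and a rise in free tubulin dimers makes cells degrade tubulin mRNA, a feedback called tubulin autoregulation.

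The libraries of each group were alike. The number of genes at 1 TPM or more was 12468 to 12700 per library. The 20 top genes held 18.6% to 19.2% of the TPM in Podofilox and 18.3% to 19.3% in DMSO. Pearson's r across genes was at least 0.991 between Podofilox libraries, at least 0.985 between DMSO libraries and between 0.966 and 0.975 across the groups. All libraries come from 1 line, so p-values reflect how these libraries vary and say nothing of variation between animals. Library numbers run consecutively within each group, so library batch and treatment cannot be told apart. All 6 libraries labelled DMSO were used, although the design text counts 5.

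The fibroblast label was checked against 12 marker genes, and all 12 were measured. Col1a1, a chain of type I collagen, averaged 931 ± 48.8 TPM (SD, n = 3) in Podofilox and 999 ± 170 TPM (SD, n = 6) in DMSO. Vim, the intermediate filament protein vimentin, stood at 2278 ± 73.8 TPM and 2542 ± 231 TPM, a difference of −0.15 that passed the test here and was lost or turned in 9 of 19 alternatives. Of the 12 markers, 8 were lower in Podofilox and 1 higher, and S100a4, a calcium-binding protein, fell from 2405 ± 147 TPM to 1123 ± 59.9 TPM. Most defining genes of other cell types were low: no lymphocyte marker passed the filter, and 7 of 8 keratinocyte markers and 5 of 7 endothelial markers stayed under 1 TPM in all 9 libraries. Skeletal muscle markers and Schwann cell or melanocyte markers each had 2 of 7 tested and none called. Of 6 chondrocyte markers 2 were tested, and their list summed to 188 to 235 TPM in Podofilox and 279 to 314 TPM in DMSO. Comp, a matrix protein of cartilage and tendon, fell by 0.55, and Sox9, a transcription factor of cartilage, rose by 0.51. Of 5 adipocyte markers only Fabp4, a fatty acid carrier, was tested, and it rose by 0.44 with overlapping libraries, while that list summed to 25.6 to 30.2 TPM against 17.2 to 28.6 TPM. The part of these cell types in the results was not tested. Of 10 macrophage markers 6 passed the filter, and their values stand beside Mmp12 below. In bulk RNA, fewer cells of a type and less RNA per cell cannot be told apart.

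Between Podofilox and DMSO, 6270 genes differed at an adjusted limma p below 0.05, which is 48.4% of those tested. Of these, 3561 were higher (27.5% of tested genes) and 2709 lower (20.9%), and the median log2 fold change over all genes was 0.04. Large changes were far fewer: 171 genes (1.32%) rose and 280 (2.16%) fell by 2-fold or more. All fold changes here are differences of log2(TPM + 1). In 5177 genes (40.0%) every Podofilox library lay outside the range of the DMSO libraries. Counts of gene lists below are to be read against these shares. Of the tested genes, 40 were under 1 TPM in every DMSO library and 231 in every Podofilox library, so they passed the filter through 1 group and the choice itself favours a difference.

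**Figure D1:**
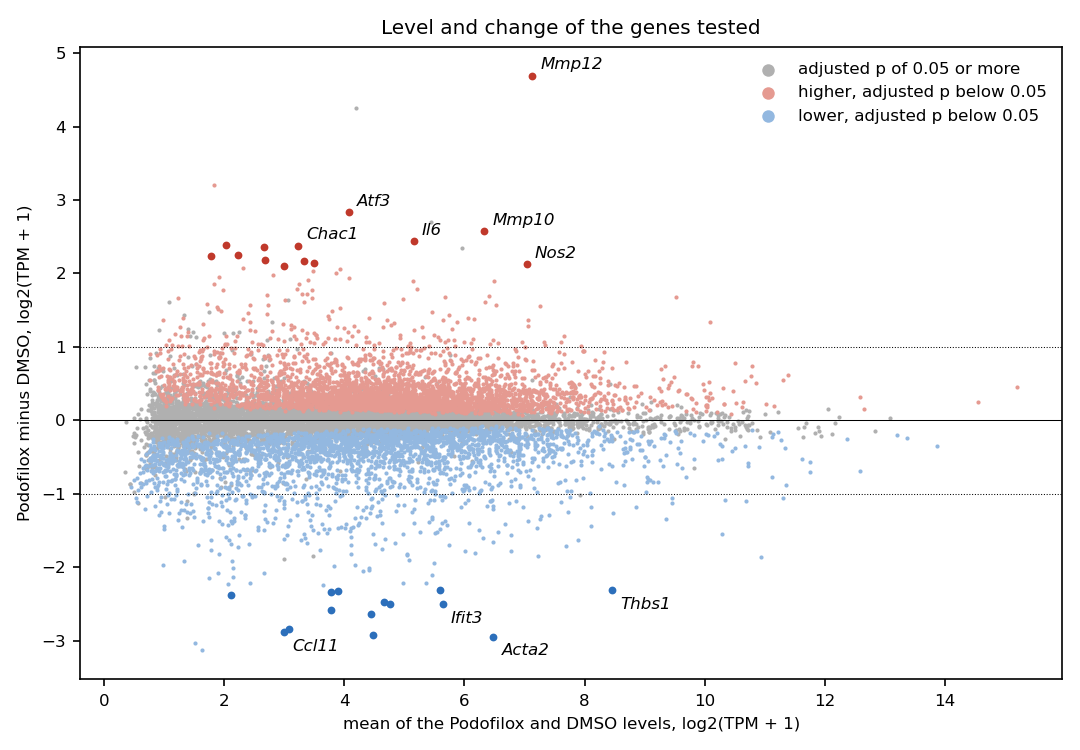
Each point is 1 of the 12948 genes; the horizontal axis is the mean of both groups' levels and the vertical axis the Podofilox minus DMSO difference, both in log2(TPM + 1), with dotted lines at 2-fold. Mmp12 stands alone at the top at 4.69 among called genes, and Acta2 is the lowest of the labelled genes at −2.94; the large dark points are the 14 named rises and 14 named falls.

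The tubulin genes, which encode the target of the compound, changed little as a sum and unevenly as isotypes. Of 16 alpha-tubulin and beta-tubulin genes 9 were tested, 3 rose, 3 fell and 3 did not pass the test, with a median log2 fold change of −0.05. Over all genes 27.5% rose and 20.9% fell, so with 9 genes these counts do not set the family apart. The summed level of the tubulin genes was 996 ± 52.4 TPM (SD, n = 3) in Podofilox and 1078 ± 61.3 TPM (SD, n = 6) in DMSO. The library ranges of 937 to 1037 TPM and 987 to 1155 TPM overlapped. Alpha-tubulin genes summed to 603 ± 37.7 TPM against 688 ± 50.6 TPM, and beta-tubulin genes to 393 ± 15.1 TPM against 391 ± 10.9 TPM.

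Tubb2b, a beta-tubulin isotype best known from neurons, showed the clearest rise of the family. It measured 15.7, 19.9 and 18.4 TPM in the Podofilox libraries, against 4.20 to 5.51 TPM in DMSO (median 4.70). The log2 fold change was 1.72 ± 0.08 (SE; limma, adjusted p = 7.57e-15), and the groups did not overlap. Tubb2b made up 4.16%, 5.04% and 4.51% of the beta-tubulin TPM in Podofilox and 1.08% to 1.36% in DMSO. Tubb6, a broadly expressed beta isotype, also rose, from 34.6 ± 2.89 TPM to 43.3 ± 1.21 TPM (log2 fold change 0.32; limma, adjusted p = 8.75e-05). Tuba4a, an alpha isotype, was called higher by 0.20 (limma, adjusted p = 0.0284), but its libraries overlapped and the call was lost under 7 of 19 alternatives.

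The falls were among alpha isotypes and Tubb4b. Tuba1b, a major alpha isotype of dividing cells, measured 146, 161 and 158 TPM in Podofilox and 176 to 230 TPM in DMSO (median 216; log2 fold change −0.44 ± 0.06; limma, adjusted p = 3.24e-06). Tuba1c fell by 0.34 on the log2 scale, from 64.1 ± 3.48 TPM to 50.3 ± 3.37 TPM, and again the groups did not overlap. Tubb4b fell by 0.21 with overlapping libraries (limma, adjusted p = 0.0058). Tuba1a, the most abundant isotype, stood at 346 ± 27.6 TPM against 367 ± 30.6 TPM, Tubb5 at 200.2 ± 8.01 TPM against 208 ± 7.13 TPM and Tubb2a at 51.4 ± 3.28 TPM against 51.6 ± 2.08 TPM, and none of these 3 passed the test. Isotypes share sequence: of the 31-base words in the transcripts, 78.7% in Tuba1b, 78.6% in Tuba1a, 55.3% in Tuba1c and 43.1% in Tubb2b also occur in other genes, so the split of reads among them is uncertain.

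**Figure D2:**
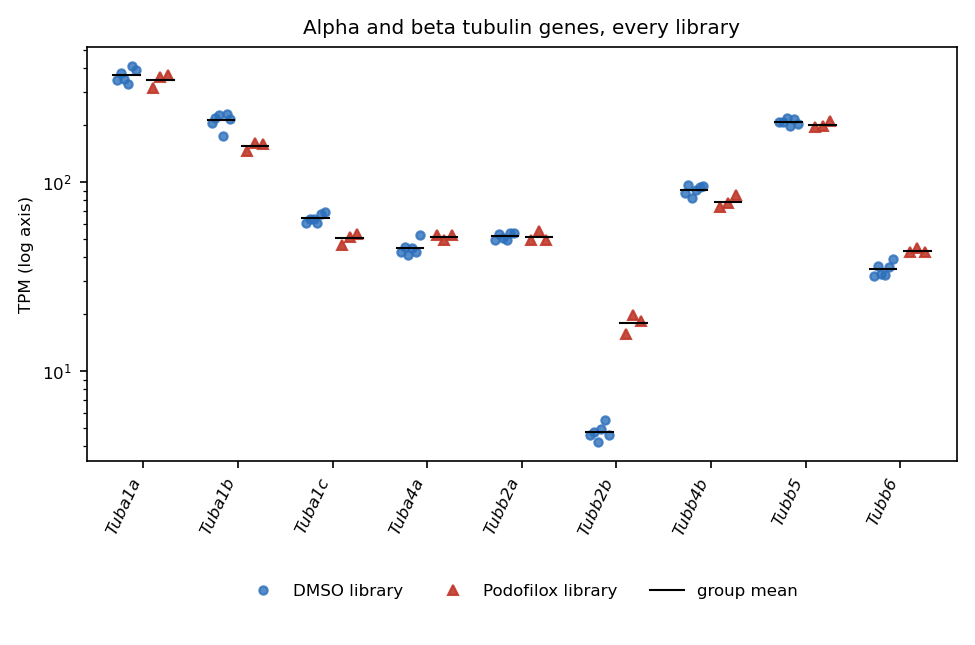
TPM on a log axis for the 9 tested alpha-tubulin and beta-tubulin genes, with circles for the 6 DMSO libraries, triangles for the 3 Podofilox libraries and short lines for group means. Tubb2b separates upward (15.7 to 19.9 against 4.20 to 5.51 TPM), Tuba1b and Tuba1c separate downward, and Tuba1a, Tubb2a and Tubb5 overlap.

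Of 31 tested microtubule-associated proteins and transport motors 15 rose and 4 fell, with a median log2 fold change of 0.12, and without Podofilox replicate 3 the rises were 10. Arhgef2 measured 107, 96.9 and 103 TPM in Podofilox and 39.9 to 52.1 TPM in DMSO (log2 fold change 1.11 ± 0.09; limma, adjusted p = 2.39e-10). All 3 end-binding proteins, which track growing microtubule tips, were higher: Mapre3 by 0.46, Mapre2 by 0.39 and Mapre1 by 0.33, although the call of Mapre3 was lost under 4 alternatives. The severing enzyme Fign was lower by 0.73. Among 22 genes for tubulin folding, turnover and modification, 7 rose and 1 fell, a share of rises near that over all genes. Vash2, a carboxypeptidase that removes the terminal tyrosine of alpha-tubulin, averaged 8.77 ± 0.616 TPM in DMSO and rose (log2 fold change 1.11; limma, adjusted p = 1.31e-12). The tubulin-sequestering proteins stathmin 1 and stathmin 2 moved apart, since Stmn1 rose by 0.97 and Stmn2 fell by 0.98 on the log2 scale. Ttc5, the factor that recognises nascent tubulin in autoregulation, was 25.6 ± 0.527 TPM in Podofilox and 25.7 ± 0.780 TPM in DMSO and did not pass the test. The 11 other tubulins and gamma-tubulin ring genes gave 2 rises and 3 falls, with Tubg1, the nucleating gamma-tubulin, higher by 0.36.

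Mitotic genes were scarce in both groups, and none rose. Only 19 of 31 passed the filter, and 10 of the 31 stayed under 1 TPM in all 9 libraries, among them Mki67, a marker of cycling cells, at most 0.309 TPM. Of the 19, 6 fell and none rose, against 20.9% and 27.5% over all genes. The list's summed level was 72.3 to 77.1 TPM in Podofilox and 90.8 to 103 TPM in DMSO. Cdk1, the mitotic kinase, measured 20.1, 22.1 and 21.2 TPM against 30.1 to 32.2 TPM (log2 fold change −0.56 ± 0.11; limma, adjusted p = 9.33e-05). Ccnb1, its cyclin partner, was 1.04 ± 0.615 TPM against 1.56 ± 0.337 TPM and did not pass. With a filter at a mean of 5 TPM, 2 mitotic genes were called lower in place of 6. Of 23 DNA replication genes 6 rose and 5 fell, shares near those over all genes. They ran from Mcm7, a helicase subunit, at 0.57 to Tk1, thymidine kinase, at −1.02. The G1 cyclin Ccnd1 fell from 32.7 ± 6.41 TPM to 12.9 ± 0.819 TPM (log2 fold change −1.26; limma, adjusted p = 3.83e-10).

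Targets of p53 moved both ways, with 7 of 24 higher and 7 lower, against 27.5% and 20.9% over all genes, and a median of −0.04. Cdkn1a, the cell-cycle inhibitor p21, was 413, 421 and 427 TPM in Podofilox and 397 to 465 TPM in DMSO, and did not pass the test. Bax and Bbc3, which promote apoptosis, were within 0.05 of 0 on the log2 scale. The largest differences were falls of Sesn1, a stress-induced inhibitor of mTORC1 signalling, by 1.07 and of the death receptor Fas by 0.96. Without Podofilox replicate 1 or replicate 3, 4 p53 targets were called higher in place of 7.

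The largest change among called genes was in Mmp12, macrophage elastase, a secreted protease that cleaves elastin. It measured 647, 746 and 731 TPM in the Podofilox libraries and 22.5 to 31.6 TPM in the DMSO libraries (median 26.9). The log2 fold change was 4.69 ± 0.10 (SE; limma, adjusted p = 1.9e-21), and the lowest Podofilox library was above every DMSO library. Mmp10, stromelysin 2, followed with 212, 190 and 186 TPM against 24.7 to 40.3 TPM (median 33.0; log2 fold change 2.58 ± 0.12; limma, adjusted p = 3.91e-15). Both genes lie in a cluster of matrix metalloproteinases on chromosome 9 (GRCm38), Mmp12 at 7344381 to 7369499 and Mmp10 at 7502352 to 7510240, on the plus strand.

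The rest of that cluster changed much less. Of its 10 listed genes 6 were tested and 5 rose, Mmp12 and Mmp10 among them, in a set chosen after the values were seen. Mmp3, stromelysin 1, was already very abundant in DMSO at 22047 ± 660 TPM and reached 26142 ± 869 TPM (log2 fold change 0.25; limma, adjusted p = 0.00169; 0 under quantile normalization, in which it keeps 1 rank in all libraries). Mmp13, a collagenase, was 1336 ± 73.8 TPM in Podofilox and 1274 ± 112 TPM in DMSO and did not pass the test. Mmp27 rose by 0.48 and Mmp1b by 0.33 at levels under 5 TPM, and the call of Mmp1b was lost under 5 alternatives. Mmp1b overlaps the end of Mmp12 on the opposite strand, and reads from the overlap cannot be assigned without strand.

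Among all 26 tested matrix proteases and inhibitors 13 rose and 7 fell. In the urokinase system Plau, the urokinase, rose by 0.95, its receptor Plaur by 1.06 and the inhibitor Serpinb2 by 1.66, although Serpinb2 was under 1 TPM in every DMSO library and so passed the filter only through Podofilox. Mmp14, a membrane-bound activator of Mmp2, went from 588 ± 39.9 TPM to 884 ± 38.8 TPM. Mmp9, a gelatinase, went the other way, with 106, 82.8 and 96.6 TPM against 216 to 276 TPM (log2 fold change −1.35 ± 0.09, limma, adjusted p = 3.69e-12). Timp3, an inhibitor bound to the matrix, fell from 158 ± 14.3 TPM to 49.5 ± 3.02 TPM (log2 fold change −1.65). Macrophage markers did not rise with Mmp12 as a group: their summed level was 190 to 220 TPM in Podofilox and 196 to 256 TPM in DMSO. Ptprc, Itgam, Fcgr1 and Mrc1, 4 markers of the same list, stayed under 1 TPM in all 9 libraries. Adgre1, a macrophage surface marker, fell by 1.39, the lysozyme gene Lyz2 fell by 1.12, Csf1r and Cd68 did not pass the test, and Cd14, a lipopolysaccharide co-receptor, rose by 1.39.

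The windows upstream of Mmp12 and Mmp10, of their cluster neighbour Mmp3 and of Il6 show where the AP-1 motif is present or missing. AP-1, the dimer of Jun and Fos proteins, binds TGANTCA, which reads alike on both strands. Of 27025 genes with a RefSeq start, 7.82% hold it within 250 bases upstream, against 6 of 18 matrix proteases and inhibitors and 6 of 18 chemokines and cytokines. Lists that fell also hold it, with 6 of 21 interferon-stimulated genes and 2 of 10 interferon-inducible GTPases. The windows are RefSeq on GRCm38.p6, plus strand, with matches in capitals: Mmp12 at chr9:7344147-7344396, Mmp10 at chr9:7502092-7502341, Mmp3 at chr9:7445572-7445821 and Il6 at chr5:30012864-30013113.
Mmp12: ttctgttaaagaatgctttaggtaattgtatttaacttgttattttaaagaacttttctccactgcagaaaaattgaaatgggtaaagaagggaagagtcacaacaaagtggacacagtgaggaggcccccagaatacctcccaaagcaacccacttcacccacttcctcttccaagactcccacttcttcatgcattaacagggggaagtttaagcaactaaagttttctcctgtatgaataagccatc
Mmp10: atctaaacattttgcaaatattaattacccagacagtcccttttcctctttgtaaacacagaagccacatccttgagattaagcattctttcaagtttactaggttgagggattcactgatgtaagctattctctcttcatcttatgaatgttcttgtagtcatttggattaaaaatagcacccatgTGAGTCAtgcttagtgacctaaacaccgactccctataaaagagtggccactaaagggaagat
Mmp3: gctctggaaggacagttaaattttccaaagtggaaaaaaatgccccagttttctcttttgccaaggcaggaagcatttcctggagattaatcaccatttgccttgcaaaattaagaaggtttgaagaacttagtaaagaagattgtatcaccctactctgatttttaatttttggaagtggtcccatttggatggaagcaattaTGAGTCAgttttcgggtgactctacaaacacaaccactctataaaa
Il6: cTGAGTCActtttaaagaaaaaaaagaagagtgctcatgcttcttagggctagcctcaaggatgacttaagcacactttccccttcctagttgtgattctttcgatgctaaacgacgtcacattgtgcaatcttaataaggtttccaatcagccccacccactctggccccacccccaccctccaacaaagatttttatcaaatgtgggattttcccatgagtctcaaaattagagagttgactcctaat
The match starts 63 bases before the start in Mmp10, 46 in Mmp3 and 249 in Il6. Mmp13, a gene of the same cluster that did not pass the test, also holds 1, 35 bases before its start. The window of Mmp12 shown holds no match, and the window at its other RefSeq start holds 1, 44 bases before that start. A match is a description of letters and not a measured site.

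Il6, an inflammatory cytokine, led a small set of secreted factors that rose. Its libraries read 84.5, 96.6 and 67.8 TPM in Podofilox and 10.0 to 18.5 TPM in DMSO (median 15.5), and the log2 fold change was 2.44 ± 0.24 (limma, adjusted p = 3.81e-09). Il11, a cytokine of the same family, averaged 22.4 ± 7.43 TPM against 3.22 to 6.01 TPM (2.04 ± 0.23, limma, adjusted p = 4.99e-08). Lif, the third member, went from 13.8 ± 2.06 TPM to 29.8 ± 1.15 TPM. The neutrophil chemokines Cxcl2 and Cxcl1 rose by 1.01 and 0.61. These were exceptions in their list: of 27 tested chemokines and cytokines 6 rose and 19 fell, with a median of −0.62. Of the 19, 1 was under 1 TPM in every Podofilox library and passed the filter only through DMSO.

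Chemokines that attract eosinophils, monocytes and T cells were among the falls. Ccl11, eotaxin, was 1.75, 1.83 and 2.24 TPM in Podofilox and 18.6 to 23.6 TPM in DMSO (log2 fold change −2.88 ± 0.12; limma, adjusted p = 8.21e-16). Ccl9 fell by 2.58, the interferon-induced Cxcl9 fell by 2.22 and Cxcl10 fell by 1.29, and Cx3cl1, fractalkine, by 1.84. Ccl5 remained abundant but fell from 3666 ± 476 TPM to 1759 ± 125 TPM. Ccl2, a monocyte chemokine, was 4558 ± 121 TPM against 4659 ± 275 TPM and did not pass. The alarmin Il33 fell by 1.68, and Csf1, the macrophage growth factor, by 0.89.

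NF-kB and acute phase genes were split, with 9 of 26 higher and 13 lower. Nos2, inducible nitric oxide synthase, was the largest rise, with 320, 274 and 233 TPM against 44.0 to 76.0 TPM (2.13 ± 0.22, limma, adjusted p = 1.44e-08). Saa3, serum amyloid A3, the most abundant transcript of the list, went from 32372 ± 2519 TPM to 44518 ± 3233 TPM, a difference that is 0 under quantile normalization. Saa1 rose by 1.65, although 46.8% of its 31-base words occur in other genes. The adhesion molecules Vcam1 and Icam1 fell by 1.43 and 0.64, and the complement gene C3 by 0.78. Nfkbia, the feedback inhibitor of NF-kB, differed by 0.02 and did not pass. Both kinin receptors, which lie side by side on chromosome 12, were higher: Bdkrb2 measured 13.4, 13.9 and 12.9 TPM against 1.39 to 2.47 TPM (log2 fold change 2.36), and Bdkrb1 measured 32.8, 33.6 and 30.0 TPM against 6.56 to 9.19 TPM (1.94).

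Transcription factors of the AP-1 family and immediate early genes separated into rising and falling members. Of 25 tested, 14 rose and 6 fell. Atf3, a stress-induced AP-1 and ATF family factor, was the second largest named rise, with 43.0, 45.9 and 43.4 TPM against 4.32 to 7.48 TPM (2.84 ± 0.11, limma, adjusted p = 1.74e-16). Jund rose by 1.61, Jun by 0.68, Fosl1 by 0.54 and Fosl2 by 0.45. Of the 31-base words of Jund 50.1% occur in other genes, and of those of Fosl1 54.5%. Fos fell by 1.19 and Fosb by 0.62, the latter with overlapping libraries and a call lost under 12 alternatives, and Junb and Egr1 did not pass the test. Egr2, Egr3 and Klf2, which are induced within minutes to hours of growth factor or mechanical stimulation, all fell, Egr2 by 1.14 and Klf2 by 1.16. Egr1 varied widely within DMSO, from 40.7 to 117 TPM.

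Dual-specificity phosphatases, some of which remove phosphate from MAP kinases, were also higher in several members. The set holds every gene named Dusp with a number, whatever its substrate. This set was chosen after the values were seen: of 19 tested genes 10 rose and 4 fell, and 6 rose by at least 2-fold. Of the 10 rises 2 passed the filter only through Podofilox, so the counts of this set give no support. Dusp8 is one of them, under 1 TPM in every DMSO library, with 6.76, 6.55 and 5.99 TPM against 0.470 to 0.851 TPM in DMSO. Dusp10 measured 20.2, 21.3 and 19.8 TPM against 2.95 to 4.21 TPM (2.17), and Dusp16 measured 19.2, 19.0 and 19.9 TPM against 4.44 to 5.29 TPM (1.77 ± 0.05, limma, adjusted p = 3.25e-18). Dusp8, Dusp10 and Dusp16 preferentially act on the stress kinases JNK and p38. The ERK phosphatases were less uniform: Dusp4 rose by 1.38 and Dusp6 by 0.28, Dusp7 fell by 0.28 with a call lost under 3 alternatives, and Dusp5 did not pass. Dusp1, which acts on all 3 kinase classes, went from 85.3 ± 6.74 TPM to 180 ± 11.1 TPM.

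**Figure D3:**
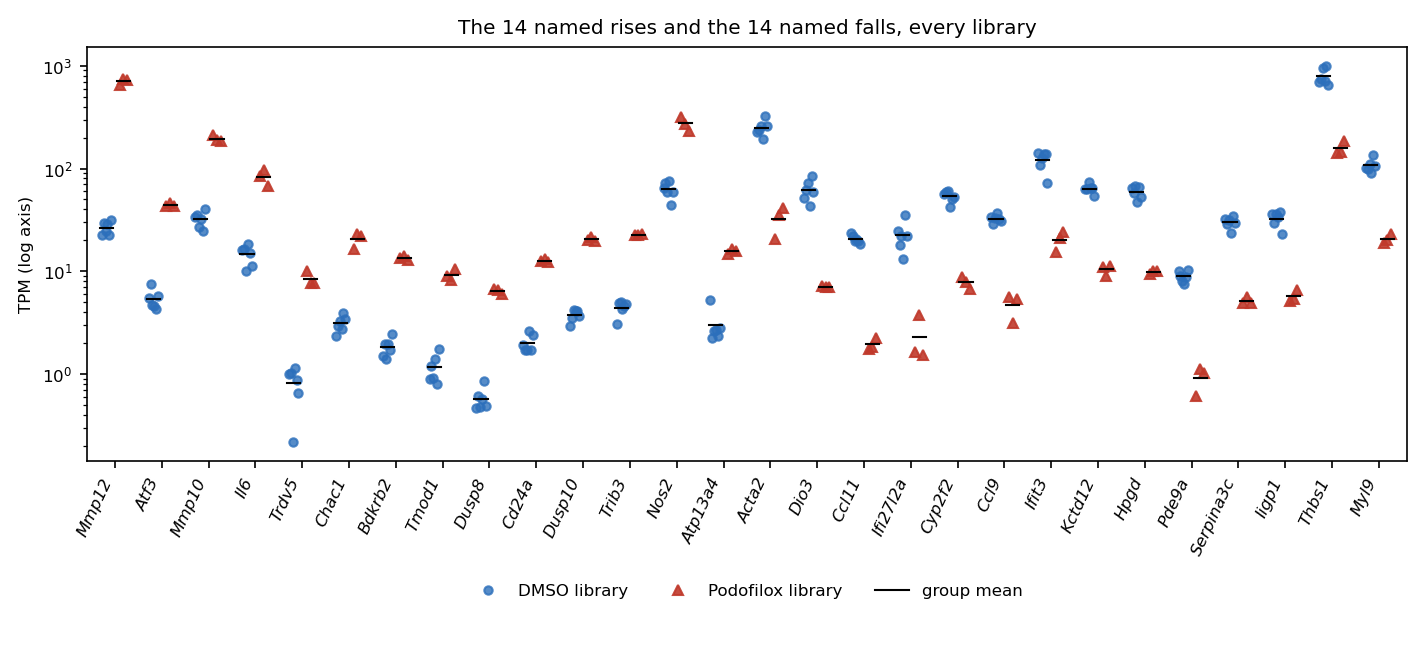
TPM on a log axis for the 14 named rises (left) and the 14 named falls (right), with circles for DMSO libraries, triangles for Podofilox libraries and short lines for group means. In each gene the 3 Podofilox libraries lie outside the 6 DMSO libraries, which the naming rule required; Mmp12 shows the widest gap upward and Acta2 goes from 194 to 323 TPM down to 20.8 to 41.2 TPM.

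The ATF4 programme, the amino acid and stress response downstream of eIF2-alpha phosphorylation, rose almost completely. Of 29 tested genes 26 rose and none fell, with a median of 0.92 against 0.04 over all genes, and 11 rose by at least 2-fold. Atf4 itself measured 289, 312 and 295 TPM against 125 to 144 TPM (1.15 ± 0.04, limma, adjusted p = 1.12e-16). Chac1, which degrades glutathione, measured 16.6, 22.9 and 21.9 TPM against 2.35 to 3.95 TPM (2.38), and Trib3, a pseudokinase that restrains ATF4, measured 22.8, 22.4 and 23.2 TPM against 3.05 to 4.97 TPM (2.15). Mthfd2, of mitochondrial folate metabolism, rose by 2.06, and the cystine transporter Slc7a11 by 1.78. The serine synthesis enzymes Psat1 and Phgdh rose by 1.38 and 1.14, and the asparagine synthetase Asns by 1.17. Of the 31-base words of Phgdh 56.3% occur in other genes. Ddit3, encoding the factor CHOP, went from 84.2 ± 6.52 TPM to 145 ± 5.90 TPM. Nupr1, Psph and Ddit4 did not pass the test.

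The cytosolic aminoacyl-tRNA synthetases, which charge tRNAs and include many ATF4 targets, showed 16 rises and no fall among 20 genes, with a median of 0.52. Cars, for cysteine, rose by 1.13, Aars, for alanine, by 1.01 and Iars, for isoleucine, by 0.76. Qars, Kars, Hars and Dars, which charge glutamine, lysine, histidine and aspartate, differed by at most 0.09 and did not pass. Endoplasmic reticulum chaperones, many of them induced by the unfolded protein response, rose in 20 of 21 with a median of 0.49, at smaller sizes. Hspa5, the chaperone BiP, measured 1142, 1174 and 1228 TPM against 655 to 724 TPM (0.79 ± 0.05, limma, adjusted p = 2.99e-13), Dnajb9 rose by 0.86, and Xbp1, a transcription factor of that response, by 0.59.

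Letters upstream of ATF4 targets were compared with the C/EBP-ATF response element. It was searched as TGATGNAA on both strands, and 3.91% of all genes hold it within 250 bases upstream, against 8 of 29 genes of the ATF4 list and 3 of 12 tRNA synthetases with a RefSeq start. Chac1 and Slc7a11 are shown as members with large rises and a match, Chac1 from the plus strand at chr2:119350992-119351241 and Slc7a11 from the minus strand at chr3:50443614-50443863, read 5′ to 3′ with matches in capitals.
Chac1: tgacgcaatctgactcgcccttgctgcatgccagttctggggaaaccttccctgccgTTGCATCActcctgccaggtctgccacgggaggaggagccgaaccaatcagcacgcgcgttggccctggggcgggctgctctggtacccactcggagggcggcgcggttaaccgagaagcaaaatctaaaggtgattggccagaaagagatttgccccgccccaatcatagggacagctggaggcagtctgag
Slc7a11: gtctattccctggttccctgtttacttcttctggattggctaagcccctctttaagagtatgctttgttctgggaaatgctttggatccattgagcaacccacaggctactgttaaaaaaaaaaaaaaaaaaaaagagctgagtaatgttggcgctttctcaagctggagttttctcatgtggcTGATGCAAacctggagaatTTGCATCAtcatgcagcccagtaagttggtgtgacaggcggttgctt
Chac1 holds 1 match, 193 bases before its start, and Slc7a11 holds 2, at 66 and 47 bases. Trib3 and Mthfd2, which rose by 2.15 and 2.06, hold none in this window.

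Targets of NRF2, the factor named in the study's title, rose in 21 of 30 and fell in 4, with a median of 0.45. Srxn1, which repairs oxidised peroxiredoxins, measured 266, 258 and 257 TPM against 73.9 to 103 TPM (1.55 ± 0.07, limma, adjusted p = 1.73e-15). Txnrd1, thioredoxin reductase, rose by 1.10, Gclm, a subunit of the glutathione-synthesising ligase, by 1.07 and Hmox1, heme oxygenase, by 0.56. Nqo1, a classical NRF2 target, was 93.5 ± 5.87 TPM against 90.9 ± 9.63 TPM and did not pass. Fth1, ferritin heavy chain, fell by 0.34 from 16961 ± 555 TPM, a difference that is also 0 under quantile normalization. Cytosolic heat shock proteins rose in 9 of 18, and the highly inducible Hspa1a and Hspa1b were not among them, with differences of 0.01 and −0.07.

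Genes of glycolysis and hypoxia were higher in 19 of 25 and lower in 2, with a median of 0.48. Hk2, hexokinase, went from 19.9 ± 3.53 TPM to 44.2 ± 2.18 TPM (1.13 ± 0.11, limma, adjusted p = 3.69e-09). The lactate exporter Slc16a3 rose by 1.09 and the glucose transporter Slc2a1 by 0.80. Vegfa, an angiogenic factor, rose by 0.63, Adm, adrenomedullin, fell by 0.85, and Car9, a hypoxia marker, did not pass. Of 32 nuclear oxidative phosphorylation genes 3 rose and 12 fell, with differences no larger than 0.38 among those called. Of the 13 mitochondrially encoded proteins 1 was called, mt-Co1 with a fall of 0.19, and 4 were called lower without DMSO replicate 6 and 0 under quantile normalization. In mt-Co1 63.9% of the 31-base words occur in other genes.

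The contractile cytoskeleton showed the largest fall of any named gene. Acta2, smooth muscle actin, the marker of myofibroblasts, measured 20.8, 35.5 and 41.2 TPM in Podofilox and 194 to 323 TPM in DMSO (median 248). Its log2 fold change was −2.94 ± 0.14 (limma, adjusted p = 7.98e-15), and the highest Podofilox library was far under the lowest DMSO library. Myl9, a myosin light chain, measured 19.0, 19.9 and 23.2 TPM against 89.9 to 136 TPM (−2.31 ± 0.10). Tagln, transgelin, fell by 1.81, with 62.2% of its 31-base words shared with other genes. The actin cap protein Lmod1 (under 1 TPM in every Podofilox library) fell by 2.07, the calponin Cnn2 fell by 1.78 and the kinase Mylk fell by 1.68. Of 25 tested SRF targets and contractile genes 18 fell and 4 rose, with a median of −0.55. Of the 18, 2, Lmod1 among them, passed the filter only through DMSO.

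The falls reached the abundant cytoplasmic actins but not every member. Actb went from 792 ± 75.2 TPM to 511 ± 21.7 TPM and Actg1 from 755 ± 53.3 TPM to 421 ± 23.6 TPM. Srf, the transcription factor that drives these genes, was lower by 0.36. Non-muscle myosin Myh9, at 177 ± 9.01 TPM against 178 ± 13.5 TPM, and tropomyosin Tpm4 did not pass the test. Zyx, a focal adhesion protein, and the fibronectin receptor Itga5 rose by 0.81 and 0.69. Tmod1, which caps the slow-growing end of actin filaments, was a named rise outside this list, with 9.08, 8.15 and 10.5 TPM against 0.807 to 1.75 TPM, and 31.9% of its 31-base words occur in other genes.

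The CArG box, the element SRF binds, was searched on both strands as CCWWWWWWGG, where W is A or T. Boxes that depart from this spelling were not counted. It is present within 250 bases upstream in 1.62% of all genes and in 5 of 23 genes of the contractile list. Cnn2 at chr10:79988350-79988599 and Vcl at chr14:20929148-20929397, both on the plus strand, are shown because both fell and carry the same box, in capitals, at different distances from the start.
Cnn2: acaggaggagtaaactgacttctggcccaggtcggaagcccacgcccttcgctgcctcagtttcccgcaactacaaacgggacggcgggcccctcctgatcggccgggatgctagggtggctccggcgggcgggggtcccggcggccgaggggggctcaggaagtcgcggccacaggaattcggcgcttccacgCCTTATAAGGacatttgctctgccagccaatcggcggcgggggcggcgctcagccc
Vcl: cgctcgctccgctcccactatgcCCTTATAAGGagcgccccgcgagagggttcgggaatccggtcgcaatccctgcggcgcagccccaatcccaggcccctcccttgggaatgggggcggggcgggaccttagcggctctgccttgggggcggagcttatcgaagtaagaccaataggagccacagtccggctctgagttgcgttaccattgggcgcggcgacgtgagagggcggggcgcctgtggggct
The box lies 56 bases before the start in Cnn2 and 227 in Vcl, and the genes fell by 1.78 and 0.93. Acta2, with the largest named fall (log2 fold change −2.94), holds no exact match in this window. It does hold CCCTATATGG and CCTTGTTTGG, each 1 letter away from the spelling searched, so a missing match is not a missing element. Myl9 (log2 fold change −2.31) holds 1, 161 bases before its start.

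Targets of YAP and TEAD, factors that respond to cell tension, fell in 10 of 22 and rose in 5. Ccn1 measured 64.9, 88.1 and 94.9 TPM against 156 to 263 TPM (log2 fold change −1.37 ± 0.17; limma, adjusted p = 2.02e-07), and Ccn2 averaged 44.4 ± 6.45 TPM against 103 to 167 TPM. Both encode secreted matricellular proteins, and in both the groups did not overlap. Ankrd1, another target, rose from 1.14 ± 0.451 TPM to 2.89 ± 0.755 TPM. Thbs1, thrombospondin 1, a matricellular protein that activates latent TGF-beta, fell from between 657 and 999 TPM to 143, 145 and 184 TPM (−2.31 ± 0.15, limma, adjusted p = 2.02e-12).

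Extracellular matrix genes fell in 20 of 38 and rose in 10, with a median of −0.27. Of the 20, 1 was under 1 TPM in every Podofilox library and passed the filter only through DMSO. The type VI collagen chains fell together, with log2 fold changes of −1.42 for Col6a3 and −1.18 for both Col6a1 and Col6a2. The fibrillar chains differed less: Col3a1 fell by 0.27, a call lost under 4 alternatives, and Col1a1 and Col1a2 did not pass, although Col1a2 was called lower under 7 of 19 alternatives. Col12a1, a collagen of tendon and fascia, rose from 239 ± 15.4 TPM to 418 ± 41.0 TPM. Of 27 TGF-beta ligands, receptors and feedback genes 8 rose and 7 fell, against 27.5% and 20.9% over all genes. Inhba, the activin A subunit, rose from 43.2 ± 4.33 TPM to 91.5 ± 10.1 TPM and Bmp2, a bone morphogenetic protein, from 6.35 ± 0.907 TPM to 28.3 ± 2.43 TPM. Ltbp2, a matrix protein, fell by 0.84, and the feedback inhibitor Smad7 did not pass.

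Interferon-stimulated genes fell as a block. Of 29 tested 28 fell and none rose, with a median of −1.16, and 20 fell by at least 2-fold. Of the 28, 4 were under 1 TPM in every Podofilox library and passed the filter only through DMSO. All 11 tested interferon-inducible GTPases fell, with a median of −1.31, and 1 of them likewise passed the filter only through DMSO. Ifit3, an antiviral RNA-binding family member, measured 15.4, 21.1 and 24.2 TPM in Podofilox and 71.9 to 140 TPM in DMSO (−2.50 ± 0.18, limma, adjusted p = 1.84e-11), with 61.8% of its 31-base words shared with other genes. Isg15, a ubiquitin-like modifier, measured 13.9, 20.5 and 20.4 TPM against 70.1 to 113 TPM (−2.21 ± 0.15). Ifit1 fell by 2.22, and Ifi27l2a, an interferon-induced mitochondrial protein, by 2.84.

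Transcription factors of the pathway fell as well. Irf7, the amplifier of type I interferon, fell by 1.83, Stat2 by 0.86 and Irf9 by 0.60. Ifnar1, a chain of the type I interferon receptor, was higher by 0.12 with overlapping libraries (limma, adjusted p = 0.0469), a call lost under 11 alternatives. Among the GTPases Iigp1 measured 5.10, 5.41 and 6.55 TPM against 23.0 to 37.4 TPM (−2.32 ± 0.13), and Gbp3 and Irgm1 fell by 1.34 and 0.97. Rsad2, viperin, did not pass, at 0.878 ± 0.0312 TPM against 1.15 ± 0.466 TPM.

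DMSO replicate 6 held the lowest DMSO value in 28 of the 29 interferon-stimulated genes. Their summed level was 999 TPM in that library, between 1294 and 1578 TPM in the other 5 DMSO libraries and 420 to 554 TPM in Podofilox. That library was also lowest of the 6 in 10 of 11 interferon-inducible GTPases. Their sum was 195 TPM there, 262 to 318 TPM in the other DMSO libraries and 103 to 131 TPM in Podofilox. It was lowest too in 8 of 13 mitochondrially encoded genes, 17 of 31 microtubule-associated genes and 14 of 27 chemokines and cytokines. The same held for 13 of 22 Hedgehog and cilium genes, although the summed level of that list was 1555 TPM there and 1278 to 1374 TPM in the other DMSO libraries. Without DMSO replicate 6 the test still called 28 of the interferon-stimulated genes and 11 of the GTPases lower.

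Upstream windows of this block were searched for the interferon-stimulated response element, spelled GAAANNGAAA on both strands. It is found in 3.46% of all genes, in 10 of 21 interferon-stimulated genes and in 9 of 10 GTPases with a RefSeq start. Isg15, from the minus strand at chr4:156200819-156201068, and Ifit1, from the plus strand at chr19:34640639-34640888, are shown 5′ to 3′ with matches in capitals.
Isg15: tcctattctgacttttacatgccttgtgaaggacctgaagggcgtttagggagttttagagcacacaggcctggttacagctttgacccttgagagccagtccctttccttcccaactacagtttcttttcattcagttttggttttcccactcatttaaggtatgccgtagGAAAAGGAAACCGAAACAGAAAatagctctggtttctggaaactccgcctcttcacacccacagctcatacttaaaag
Ifit1: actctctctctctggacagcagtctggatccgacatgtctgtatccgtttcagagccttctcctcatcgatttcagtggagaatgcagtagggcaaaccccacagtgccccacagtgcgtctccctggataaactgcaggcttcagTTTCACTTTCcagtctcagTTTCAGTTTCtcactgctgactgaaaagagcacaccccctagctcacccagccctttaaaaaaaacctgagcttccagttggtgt
Isg15 holds 3 overlapping matches, the first 78 bases before its start, and Ifit1 holds 2, read on the opposite strand, at 104 and 85 bases.

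Sterol synthesis genes fell in 18 of 24 and none rose, with a median of −0.42. Of the 18, 1 was under 1 TPM in every Podofilox library and passed the filter only through DMSO. Idi1 and Hmgcs1, enzymes of the mevalonate pathway, each fell by 0.85, and Cyp51, a lanosterol demethylase, by 0.72. Srebf2, which encodes the sterol-regulated factor SREBP2, differed by 0.02 and did not pass. Hedgehog and primary cilium genes, whose products rely on a microtubule axoneme, fell in 8 of 22 and rose in 1, and the falls were 3 without Podofilox replicate 2, 4 with the 9 libraries alone and 12 under median-ratio scaling. Cdon, a Hedgehog co-receptor, fell by 0.50 and the transport protein Ift20 rose by 0.42. In the lysosome and autophagy list 13 of 28 rose and 7 fell, from Gla at 0.78 to Glb1 at −0.49. Ribosomal proteins hardly moved, with 5 of 33 higher, none lower and a median of 0.01.

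**Figure D4:**
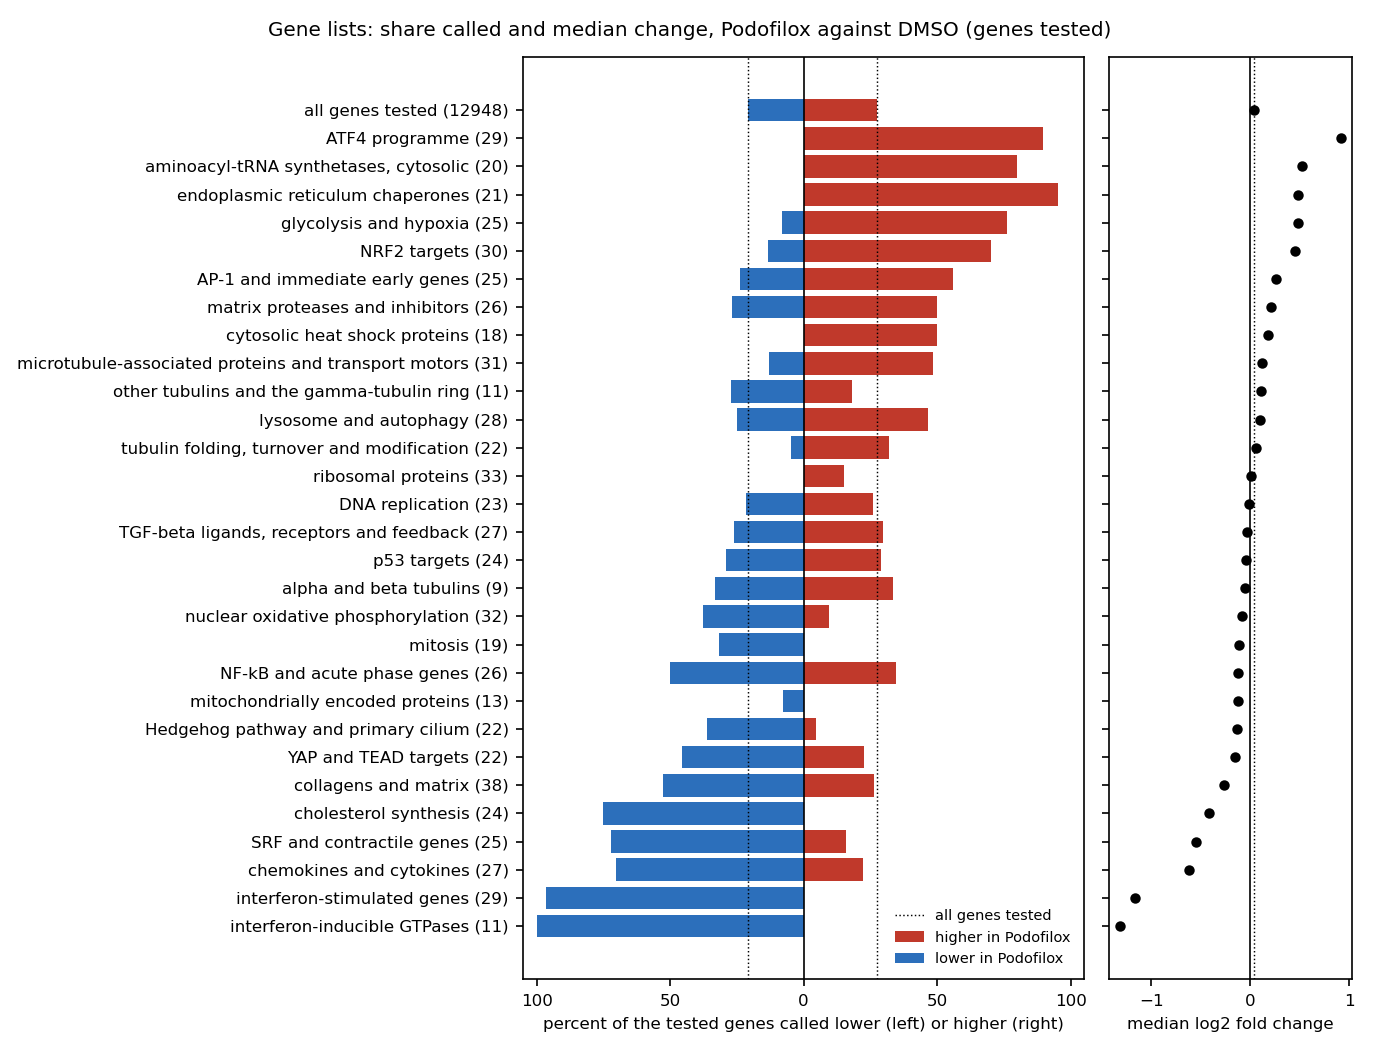
Left, the share of tested genes in each of 29 lists called lower (blue) or higher (red) in Podofilox, with the number tested in brackets and dotted lines at the shares over all genes (20.9% and 27.5%); right, the median log2 fold change of each list. The ATF4 programme (26 of 29 higher) and the interferon lists (28 of 29 and 11 of 11 lower) stand at opposite ends.

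The remaining named falls and rises belong to no list. Dio3, which inactivates thyroid hormone, measured 7.14, 7.06 and 7.04 TPM against 43.1 to 84.0 TPM (−2.93 ± 0.15). Hpgd, which degrades prostaglandins, measured 9.34, 9.96 and 10.0 TPM against 47.6 to 67.8 TPM (−2.48), and Pde9a, a cyclic GMP phosphodiesterase, fell by 2.38 from 8.96 ± 1.07 TPM. Cyp2f2, a cytochrome P450, fell by 2.63, and the serpin Serpina3c fell by 2.33. Kctd12, a subunit of GABA-B receptors, fell by 2.50, with 63.1% of its 31-base words shared with other genes. Cd24a, a surface glycoprotein, measured 12.6, 13.2 and 12.3 TPM against 1.72 to 2.63 TPM (2.19), and Atp13a4, a P5-type ATPase, rose by 2.10. Trdv5, a T cell receptor segment, rose by 2.39 from 0.821 ± 0.340 TPM, with 43.4% of its 31-base words shared, while the T cell genes Cd3e and Cd3g reached at most 0.034 TPM and 0.0253 TPM. Gm11518, a processed pseudogene picked after its values were seen, had libraries of 1 group that disagreed: it measured 149, 21.8 and 147 TPM in Podofilox and up to 66.4 TPM in DMSO. It did not pass here (log2 fold change 4.25; limma, adjusted p = 0.0539) and was called higher under 5 of 19 alternatives, among them the 9 libraries alone and the fit without Podofilox replicate 2.

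Podofilox was then compared directly with each of the other 7 compounds as well as DMSO, to find genes that set it apart from every other group. A gene counted when the largest of its 8 one-direction p-values passed after adjustment and it differed by at least 1 on the log2 scale from the nearest group. By this rule 29 genes (0.224% of those tested) were higher in Podofilox than in each other group, and 0 (0%) were lower. At an unadjusted limma p below 0.05 the second count was 1. Without the size requirement, 408 genes were higher and 129 lower than in each other group by limma. The counts of higher genes include genes that passed the filter only through Podofilox, Dusp8 among them. How many did so was not counted, so these counts are descriptions.

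Mmp12 stood furthest apart, 3.54 above its nearest group, Cardamonin, at 60.0 ± 4.68 TPM. Mmp10 was 2.07 above Antimycin A, at 45.8 ± 1.52 TPM. In Il6 the nearest group was DMSO itself, 2.44 below Podofilox, so all 7 other compounds had lower means than DMSO. Dusp8, 2.24 above DMSO as its nearest group, passed the filter only through Podofilox and so is given as a description. Il11 was 1.90 above Cardamonin and Saa1 1.65 above DMSO. Bdkrb1 and Bdkrb2 were each 1.64 above their nearest groups, Antimycin A and AEG 3482. With Dusp8 left aside, the largest adjusted limma p among these genes was 1.96e-05, for Saa1. Nos2, Dusp10, Dusp16, Tnfaip6, Bmp2, Rcan1, Lif and Cxcl2 were among the other genes that passed.

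**Figure D5:**
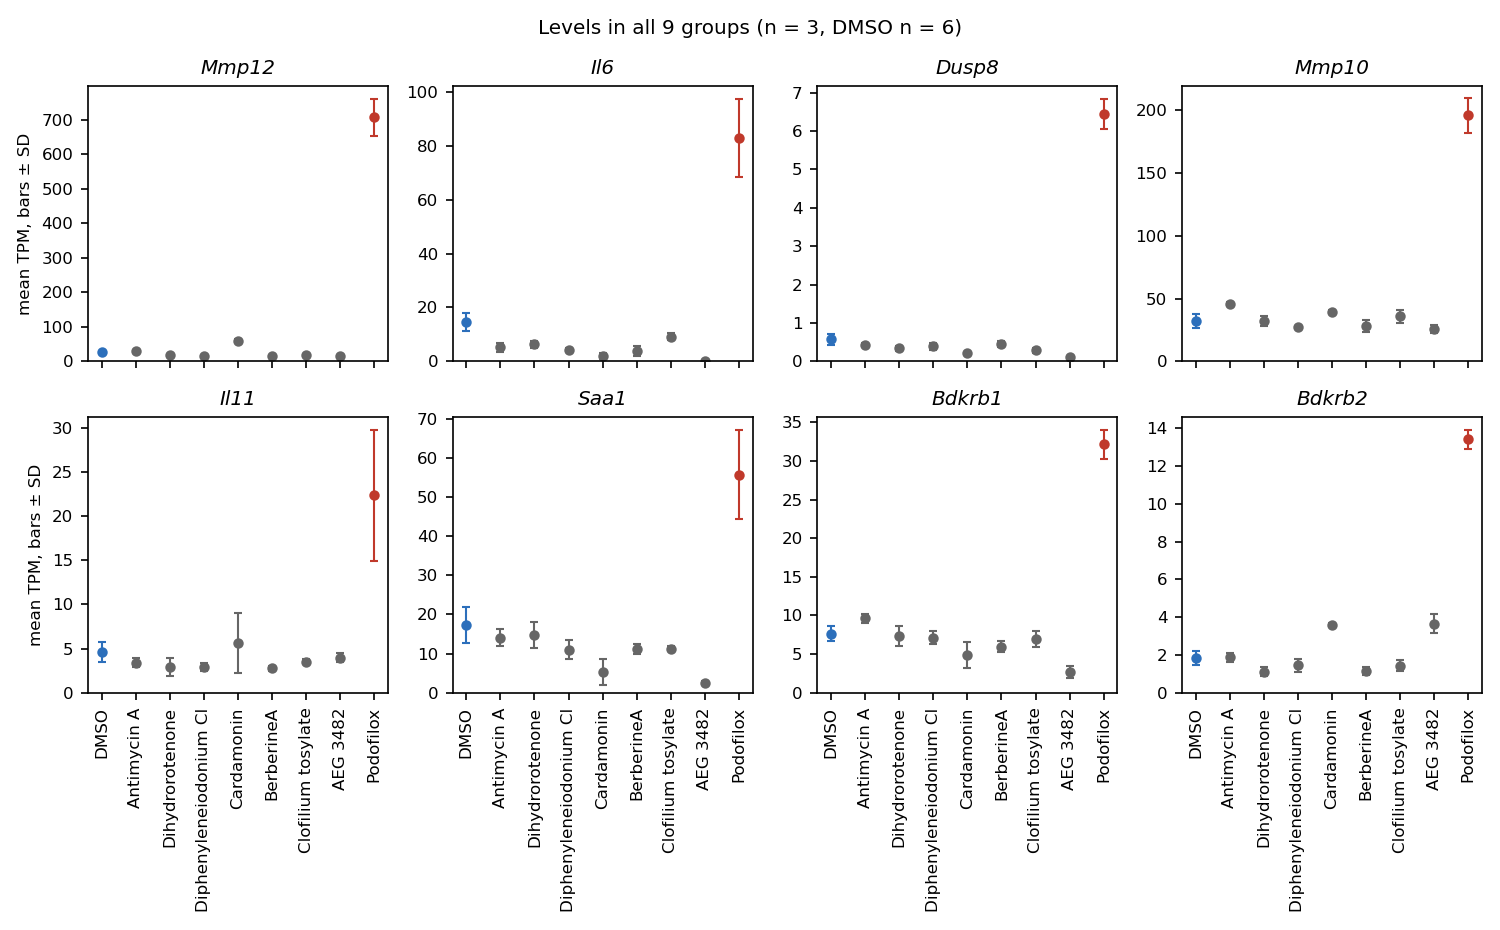
Mean TPM with bars of ± 1 SD in all 9 groups (3 libraries each, 6 for DMSO) for the 8 genes that exceed every other group by most; each panel has its own linear axis. Podofilox (red) lies above DMSO (blue) and the other 7 compounds (grey) in every panel, which the choice of genes required. Il11, at 22.4 ± 7.43 TPM, has the Podofilox bar that is widest for its mean. Dusp8 passed the filter only through Podofilox and is shown as a description.

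Other changes were not particular to Podofilox by this test. Atf3 was 44.1 ± 1.55 TPM in Podofilox and 34.6 ± 2.15 TPM in Cardamonin, a difference of 0.34 that did not pass as a difference from every group. Chac1 and Trib3 were higher in Cardamonin, at 40.8 ± 1.26 TPM and 72.8 ± 3.36 TPM. Acta2 was lower in Cardamonin and AEG 3482, at 1.75 ± 0.203 TPM and 5.83 ± 0.446 TPM, than in Podofilox at 32.5 ± 10.5 TPM. Ifit3 was lower in Cardamonin, at 7.78 ± 2.38 TPM, and its mean was above that of DMSO in 5 compounds, up to 719 ± 90.5 TPM in Antimycin A. Tubb2b was higher in Podofilox than in each other group, but by only 0.69 from Antimycin A at 10.8 ± 1.04 TPM.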

How the data were processed

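RNA of 30 libraries was depleted of ribosomal RNA and sequenced. The authors deposited 1 table of TPM (length-scaled transcript abundance) per gene and library. Per the submitters' processing notes, FastQC and kallisto 0.43.1 were used with mm10, and per the series text transcript estimates were summed to genes with tximport and tested with DESeq2. TPM keeps no depth, so the depth per library is unknown here and no counting interval is given. Of 29861 gene identifiers 29505 (98.8%) were matched to symbols of GENCODE M21.

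A gene was kept if 3 or more of the 9 Podofilox and DMSO libraries reached 1 TPM. Values were taken as log2(TPM + 1), and limma 3.58.1 in R 4.3.3 was fitted to all 30 libraries in 9 groups, with an intensity trend and Benjamini-Hochberg adjustment over 12948 genes at a threshold of 0.05. For differences from each of 8 other groups, the largest of 8 one-direction limma p-values was adjusted likewise. The procedure was tested on simulated data. The rule for named genes took the 14 largest rises and 14 largest falls that passed the test, reached a mean of 5 TPM in 1 group and had every Podofilox library outside the DMSO range, the 8 genes furthest above their nearest group, and members of the pathway lists. Members and lists were chosen with earlier results of these data known. The phosphatase set and the Mmp cluster were chosen after the values were seen. Shared sequence was counted as 31-base words of a gene's GENCODE transcripts found in any other gene. Alternatives changed the pseudocount, filter, scaling, trend, gene set and libraries, or added the replicate number as a block.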

Additional observations from a re-analysis of the deposited data

Results flagged for a closer look

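The 6 DMSO libraries of 205 named genes were checked for a single library that lies far from the other 5, by Dixon's ratio of the gap to the range. Chance gives about 1 such library in 20 genes, and 12 of the 205 genes had one, a share near that. The 12 are therefore listed as descriptions only. Among genes higher in Podofilox, Dusp8 was high in DMSO replicate 5 (0.851 TPM, others 0.470 to 0.607), Atp13a4 was high in replicate 1 (5.23 TPM, others 2.23 to 2.83) and Slc16a3 was high in replicate 6 (52.6 TPM, others 32.3 to 39.3). Tnfaip6 was low in replicate 5 (1.96 TPM, others 2.88 to 3.24). Of the ATF4 programme, Trib3 was low in replicate 1 (3.05 TPM, others 4.26 to 4.97), Ddit3 was high in replicate 2 (97.0 TPM, others 78.5 to 83.7) and Slc7a11 was high in replicate 4 (25.7 TPM, others 15.7 to 19.4). Ankrd1 and Dusp6 were low in replicate 1, at 0.303 TPM and 18.1 TPM. Cdk1 was low in replicate 3 (30.1 TPM, others 31.7 to 32.2), and Hars was low in replicate 4 (37.2 TPM, others 39.2 to 40.3). The sterol gene Idi1 was high in replicate 5 (32.5 TPM, others 24.8 to 27.6). No cause was tested for any of these values.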

How the results depend on the processing

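Over 19 alternatives, 186 of 205 named genes kept their direction and call in each alternative in which they were tested; 23 genes were left out of at least 1. Vim went from −0.15 to 0.016 under quantile normalization, and Mmp3, Saa3 and Fth1 went to 0 there because each holds 1 rank in all libraries. Tubb4b lost its call without Podofilox replicate 1 (limma, adjusted p = 0.0648), and Tubb5 gained one under median-ratio scaling (−0.09, limma, adjusted p = 0.0474). Gm11518 gained a call in 5 settings (4.25 to 5.15), Fosb lost its call in 12 (−1.01 to −0.44), and Ccnb1 gained one in 2 (−0.59 and −0.43). The cause was not tested. The count of genes called was 6270 and lay between 5317 (without Podofilox replicate 1) and 6280 when 1 library was left out, at 5641 with the 9 libraries alone and at 5913 with the replicate number as a block. The pairing of numbers was checked by the correlation of deviations, which was −0.06, 0.02 and 0.11 for numbers 1, 2 and 3, and 1 of 3 Podofilox libraries matched its own number best, so the numbers were not taken to pair the cultures. With the replicate block, 2 mitochondrially encoded genes were called lower in place of 1. With a pseudocount of 0.1, 447 genes fell by 2-fold or more in place of 280, and 44 were higher and 4 lower than in each other group in place of 29 and 0. The latter count lay between 0 and 1 when 1 library was left out. Mitotic genes called lower were 2 with a mean of at least 5 TPM. Ribosomal proteins called higher were 1 under median-ratio scaling, 8 under quantile normalization, 3 with no filter, with no intensity trend and with the 9 libraries alone, and 3 to 7 when 1 library was left out. Mitochondrially encoded genes called lower were 0 with no filter and under quantile normalization, 2 with the 9 libraries alone, and 1 to 4 when 1 library was left out. Hedgehog and cilium genes called lower were 12 under median-ratio scaling, 11 under quantile normalization, 4 with the 9 libraries alone and 3 to 8 when 1 library was left out, and p53 targets called higher were 4 to 7. The 9 libraries alone give no comparison with the other compounds. TPM hold no depth, so precision at low levels rests on the spread between libraries.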
